A study of Mus musculus with 7 samples.

Results

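Of the 7 left ventricle arrays of this series, 3 carried a high level of Myl7, the regulatory myosin light chain of atrial muscle, and the report sets these arrays against the 4 others. The arrays were selected on 1 measured value, a deposited intensity above 2000 for the brightest Myl7 probe set (1449071_at). It read 17557 on knockout M10, 16097 on wild-type M125 and 2926 on wild-type M128, which form the side with Myl7 (3 of 7 arrays, 1 knockout and 2 wild type). It read 1207 on knockout M4, 407 on knockout M140, 399 on wild-type M158 and 356 on wild-type M23, which form the side without Myl7 (2 knockout and 2 wild type). M128 lay just inside the limit and M4 just outside it. Since a measured transcript chose the sides, every difference between them is given as a description with no test, and Myl7 itself is left out of all counts.

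All mice were males aged 21 months, and the labels give left ventricle as the tissue for both groups. The knockout mice lack eNOS, the nitric oxide synthase of the vessel lining encoded by Nos3 (n = 3: M4, M10 and M140), and the wild-type mice carry the gene (n = 4: M23, M125, M128 and M158). The labels do not give the strain, the construction of the knockout allele or how the chamber was dissected, and a keyword names exercise without giving any mouse an exercise state. Each mouse was measured on 1 MOE430A array, a single-colour oligonucleotide chip. The arrays were hybridized on 4 days, each with its own chip lot. Day 1 held M140 and M128, day 2 held M125, day 3 held M4 and M10, and day 4 held M23 and M158.

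Atrial and ventricular muscle are built from related but separate genes. The atrial myosin carries the light chains of Myl7 and Myl4, where the ventricular myosin carries those of Myl2 and Myl3. Atrial muscle also makes sarcolipin (Sln), a small membrane protein that restrains the calcium pump, in the place that phospholamban (Pln) has in the ventricle, and it stores natriuretic peptide in granules. In the adult mouse the 3 transcripts Myl7, Myl4 and Sln therefore serve as markers of atrial muscle in a heart sample.

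Myl2 and Myl3 were saturated, at the top of the scale, on all 7 arrays, so that each sample held ventricular muscle. Saturated values cannot show how much atrial muscle lay beside it. Array medians ran from 671 to 699, lowest values from 86.5 to 92.3, and the upper limit from 44145 to 45552. The small number of arrays sets the precision, and the knockout side with Myl7 is 1 array. The sheet of M23 notes that 2 rounds of processing were joined. The ratio of 5' to 3' signal of the Gapdh control probe sets, a sign of RNA length, was 0.0978 on M23 and 0.340 on M158, both without Myl7 and of day 4, against 0.521 to 0.777 on the 5 other arrays. In the wild type, the sides with and without Myl7 therefore cannot be told apart from hybridization day and this ratio. In the knockout, M10 and M4 shared day 3 and had close ratios (0.521 and 0.532). M10 minus M4 therefore gives a difference within 1 day and 1 genotype. The Gapdh 3' signal was at the upper limit on all 7 arrays, so that every ratio rests on the 5' signal.

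Sln, Myl4 and Hamp were the 3 transcripts that had the order of Myl7 over the arrays and differed by at least 1 on the log2 scale between the sides. For Myl4 and Hamp the sequence table holds the promoter, and the 250 bases before each start are shown because both transcripts had the same order over the arrays. The sequences are RefSeq's, build GRCm38.p6, at chr11:104550413-104550662 on the plus strand for Myl4 and chr7:30944030-30944279 on the minus strand for Hamp. Capitals mark every match, on either strand, of 6 motifs bound by factors of heart muscle: GATAA of GATA factors, AGGTGT of T-box factors, AAGTG of NKX2-5, AGGTCA of nuclear receptors, the MEF2 motif and the CArG box of serum response factor.
Myl4: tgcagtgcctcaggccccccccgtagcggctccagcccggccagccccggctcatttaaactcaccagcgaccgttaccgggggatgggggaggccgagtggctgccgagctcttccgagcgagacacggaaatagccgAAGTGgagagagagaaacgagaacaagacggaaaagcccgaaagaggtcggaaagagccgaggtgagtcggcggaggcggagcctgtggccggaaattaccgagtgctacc
Hamp: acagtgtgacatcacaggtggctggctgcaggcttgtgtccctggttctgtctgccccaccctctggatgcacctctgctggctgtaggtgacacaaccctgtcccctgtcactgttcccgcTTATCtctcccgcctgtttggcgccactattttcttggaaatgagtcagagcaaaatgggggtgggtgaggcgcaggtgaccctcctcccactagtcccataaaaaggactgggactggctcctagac
The Myl4 window held 1 match, of AAGTG, which begins 111 bases before the start, and the Hamp window held 1 match, of GATAA on the other strand, which ends 124 bases before it. No motif was shared by both windows. Of the 32851 promoter windows of the same length, 40.7% held AAGTG, 22.6% GATAA, 14.02% AGGTCA, 11.8% AGGTGT, 3.20% the MEF2 motif and 1.47% the CArG box. These matches are a description of letters and no evidence of binding.

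Sln, the sarcolipin gene, read 6105 on knockout M10, 6762 on wild-type M125 and 3071 on wild-type M128 (1420884_at). It read 708 on knockout M4, 477 on knockout M140, 445 on wild-type M23 and 358 on wild-type M158. The sides did not overlap, and the lowest array with Myl7 stood 4.34-fold above the highest array without it. With genotype in the fit, Sln was 3.42 ± 0.28 (SE) higher on the log2(intensity + 16) scale, by 3.36 within the knockout, 3.46 within the wild type and 3.08 within day 3. Its genotype difference in the same fit was 0.48 ± 0.28 (limma adjusted p = 0.516). A second Sln probe set (1420883_at) was near background, between 403 and 464 on all arrays, and was not tested.

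Myl4, the essential light chain of atrial myosin, read 10430 on M10, 18585 on M125 and 5738 on M128. It read 2354 on M4, 1113 on M140, 1831 on M23 and 1895 on M158. The sides again did not overlap, with M4 the highest of the arrays without Myl7, as it was for Myl7 and Sln. The difference was 2.55 ± 0.43 (SE) on the log2 scale, 2.68 within the knockout, 2.46 within the wild type and 2.14 within day 3. The genotype difference of Myl4 was -0.11 ± 0.43 (limma adjusted p = 0.940).

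Hamp, which encodes the iron hormone hepcidin, read 1959 on M10, 1476 on M125 and 839 on M128 (1419197_x_at). It read 639 on M4, 514 on M140, 547 on M23 and 505 on M158, again with no overlap. The difference was 1.33 ± 0.23 (SE) on the log2 scale, and 1.75 within the knockout, 1.06 within the wild type and 1.59 within day 3. Its other probe set 1419196_at read 1640, 1299 and 761 on the arrays with Myl7 and 316 to 437 on the others, a difference of 1.65. Both probe sets therefore had the same direction, although the suffix of the first marks probes that may bind other transcripts too.

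The level on M128 lay between those of M10 and M125 and those of the other arrays for each of the 3 genes. As a share of the mean of M10 and M125, with no background subtracted, M128 read 17.4% for Myl7, 47.7% for Sln, 39.6% for Myl4 and 48.9% for Hamp. Each also had the full order of Myl7: M10 and M125 highest, then M128, then M4, then the 3 other arrays. Of the 8868 tested genes other than Myl7, 40 (0.451%) had this order, and Sln, Myl4 and Hamp were the 3 among them that differed by at least 1 on the log2 scale. This order was looked for after the values of these genes were seen. In bulk tissue, fewer cells of a type and less RNA per cell cannot be told apart, so that the levels do not give a share of atrial muscle.

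**Figure D1:**
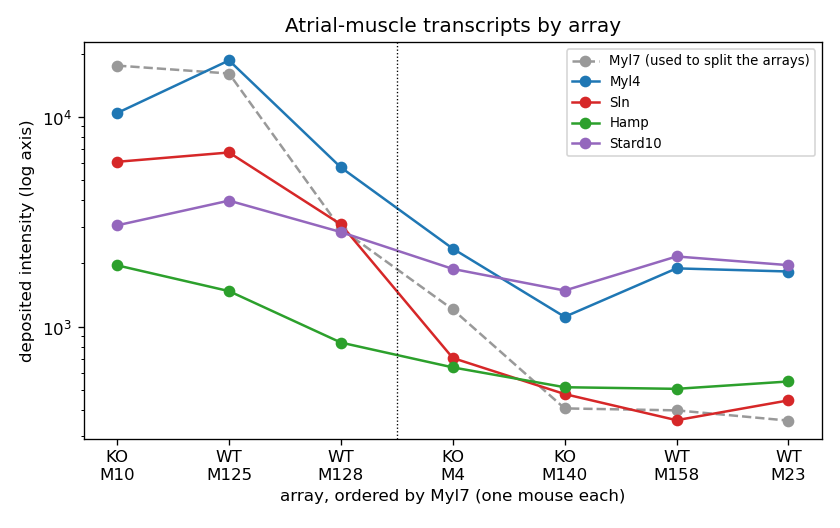
Deposited intensity on a logarithmic axis for Myl7, which chose the sides, and for Myl4, Sln, Hamp and Stard10 on each of the 7 arrays, ordered by Myl7; each point is 1 mouse, the lines only join points of a gene, and the dotted line parts the arrays with Myl7 (left) from those without. Sln runs from 3071 to 6762 on the left and from 358 to 708 on the right.

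The other atrial genes followed weakly or not at all. The atrial list had 26 genes besides Myl7, of which 22 were on the array and 16 were tested. A gene was counted as differing if its sides overlapped neither within the knockout nor within the wild type and the log2 difference was at least 1. Among all 8868 tested genes, 0.0902% were counted as higher with Myl7 by this rule, and of the 16 atrial genes these were Sln, Myl4 and Hamp. Without the size limit, 8 of the 16 had sides apart in the higher direction and 1 in the lower direction, where 11.9% and 8.37% of all tested genes did. The list's median was 0.19, against 0.02 over all tested genes. Since Myl7, Myl4 and Sln were known to share this pattern before the list was written, these counts support nothing further.

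Stard10, a lipid transfer protein enriched in atrial muscle, read 3039, 3987 and 2822 on M10, M125 and M128 and 1486 to 2160 on the 4 others, a difference of 0.76 on the log2 scale with no overlap. Kcnj3, a subunit of the potassium channel that acetylcholine opens in atrial cells, read 1223, 1271 and 1571 against 942 to 1055, a difference of 0.45. Fgf12, a regulator of sodium channels, differed by 0.42, Dkk3 by 0.23 and Bmp10, a secreted factor of atrial muscle, by 0.15. Bmp10 read 686 to 855 with Myl7 and 659 to 684 without it, a narrow range. Pam, the enzyme of peptide amidation in atrial granules, was the 1 member apart in the other direction, at 660 to 772 against 828 to 1042. Kcna5 and Adm were at -0.21 and -0.28 in the fit, Adm with overlapping sides in the wild type and Kcna5 with opposite sides in the genotypes. The remaining tested members Kcnk3, Cacna2d2, Tbx5 and Rgs6 lay between 0.04 and 0.15.

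Nppa, the atrial natriuretic peptide, did not follow Myl7 over both genotypes. It read 44869 and 45540, both at the upper limit, on knockout M4 and M140, and 37741 on knockout M10. On the wild-type arrays it read 32820 on M125 and 12669 on M128, against 6717 on M23 and 7993 on M158. Wild-type arrays with Myl7 were therefore higher by 1.47 on the log2 scale, and the knockout array with Myl7 was lower than both others by 0.26, a size that the upper limit can make smaller. The difference between the genotypes in this respect was not tested. Corin, the protease that activates the peptide, was apart in the higher direction in both genotypes, at 4306 to 5652 against 2818 to 3913 and a difference of 0.60. Of the 6 tested genes of the secretory granule list, Corin was apart in this direction and Pam in the other, where 11.9% and 8.37% of all tested genes were.

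Of the 10 tested ventricular muscle genes, 4 reached the upper limit on 1 or more arrays and 0 were counted as differing. Of all tested genes, 0.0902% were counted as higher and 0.135% as lower. The median of the list, -0.03, was set by saturated probe sets and only restates the arrays' upper limits. Gja1, the connexin of ventricular gap junctions, read 20909, 13187 and 16979 on M10, M125 and M128 (1437992_x_at). It read 22158 and 21281 on knockout M4 and M140 and 34748 and 24134 on wild-type M23 and M158. It was lower by 0.95 in the wild type and by 0.05 in the knockout. Irx4, a transcription factor of ventricular muscle, differed by -0.23, Irx5 by 0.24, Irx3 by 0.10, Kcnip2 by -0.01 and Fhl2 by 0.01. Pln, Myl2 and Myl3 were saturated on each of the 7 arrays, which gives no fold. A Pln probe set below the limit (1423359_at) read 21407 to 25075 on the 3 knockout arrays and 34111 to 40635 on the 4 wild-type arrays. Its ranges were parted by genotype, and the difference between sides was -0.09. Myh7 read 43639 to 44869 on all 3 knockout arrays and 2002 to 30422 on the wild-type arrays, with a side difference of -1.36 and no order of the knockout sides at the upper limit.

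A further 5 genes were counted as higher with Myl7, and 0 of them had the order of Myl7. S100a9 and S100a8, calcium-binding proteins abundant in neutrophils, differed by 1.52 ± 0.53 and 1.42 ± 0.38 (SE). S100a9 read 6470 on M10, 4241 on M128 and 942 on M125, against 2969 on M140, 1237 on M4, 862 on M23 and 683 on M158. Its sides overlapped over the 7 arrays, and M125, with the second highest Myl7, read below both knockout arrays without Myl7. With only M10 and M125 on the side with Myl7, its difference was 0.54. Ccl6, a chemokine of myeloid cells, read 3430, 4170 and 5132 on M10, M125 and M128 and 1587 to 2538 on the others. Herpud1, an endoplasmic reticulum protein induced by misfolded proteins, read 6573, 14522 and 8105 against 3384 to 5250. Etfbkmt, a mitochondrial methyltransferase, read 3586, 3695 and 5112 against 1840 to 2335. These last 3 genes had no overlap over the 7 arrays, with differences of 1.12, 1.05 and 1.02 and, within day 3, 0.78, 0.95 and 0.96. Of 12 macrophage markers 11 were tested, with a median of 0.07, a summed intensity of 31450 to 40955 with Myl7 and 25789 to 44982 without it, and their part in these differences was not tested.

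**Figure D2:**
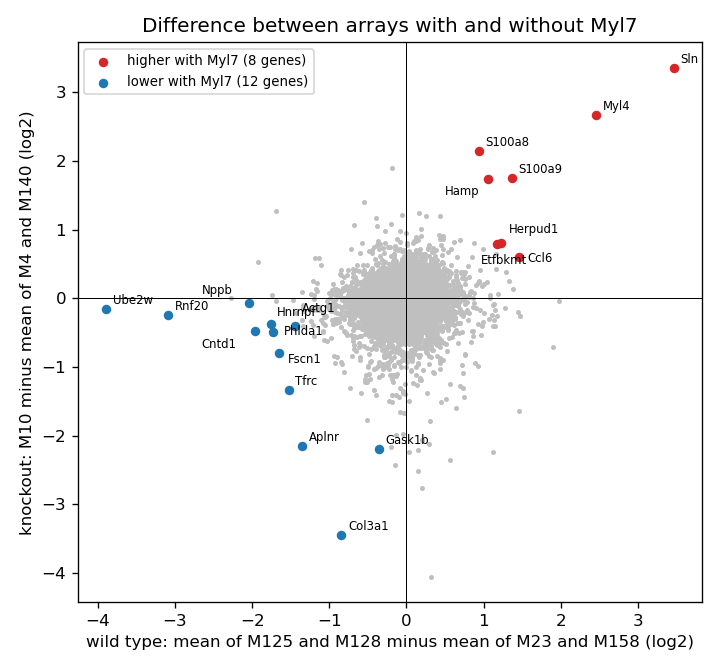
Each grey point is a tested gene, with the log2 difference between arrays with and without Myl7 in the wild type on the horizontal axis and in the knockout on the vertical axis. Coloured points are the 8 genes counted as higher and the 12 counted as lower with Myl7: Sln and Myl4 lie far from the rest in both genotypes, Ube2w and Rnf20 differ in the wild type alone, and Col3a1 mainly in the knockout.

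The tested genes of the nerve and Schwann cell list were slightly higher on the arrays with Myl7. Of 9 nerve and Schwann cell genes on the array 7 were tested, all 7 had a positive difference, and 5 had sides apart in both genotypes. Over all 8868 tested genes, 4857 had a positive difference and 11.9% were apart in this direction. The differences were small, with a median of 0.19. Mbp and Gfap, glial members of the list, differed by 0.19 and 0.03. Npy, the neuropeptide of sympathetic fibres, read 1056, 1099 and 1192 with Myl7 and 752 to 881 without it, a difference of 0.45. Dbh, the enzyme that makes noradrenaline, read 1882 to 1992 against 1540 to 1645, a difference of 0.29. Th, the first enzyme of that pathway, differed by 0.19, Sox10 of Schwann cells by 0.19 and Prph, a filament of peripheral nerve, by 0.18, and the last 2 were apart in the wild type by thin margins, 1082 on M128 against 1080 on M23 for Sox10 and 793.5 on M125 against 793.4 on M158 for Prph. With only M10 and M125 on the side with Myl7 the median of the list was 0.045.

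Lists for other tissues that lie next to the ventricle held few tested genes, and 0 of them were counted as differing, where 0.0902% of all tested genes were counted as higher and 0.135% as lower. The epicardium list had 3 tested genes of 13, the lung list 3 of 9, the fat list 4 of 11, the sinus node and conduction list 5 of 14 and the skeletal muscle list 5 of 10. Their medians lay between 0.02 and 0.12. Vascular smooth muscle had 9 tested genes, 2 of them apart in the lower direction (8.37% of all tested genes were), a median of -0.14 and a summed intensity of 15038 to 19714 with Myl7 against 21480 to 24331 without it. Acta2, its actin, read 5312 to 8176 against 10168 to 11937. Endothelial genes had a median of -0.01 over 12 members, lymphocyte genes -0.03 over 3, macrophage genes 0.07 and red cell genes 0.27 over 2.

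**Figure D3:**
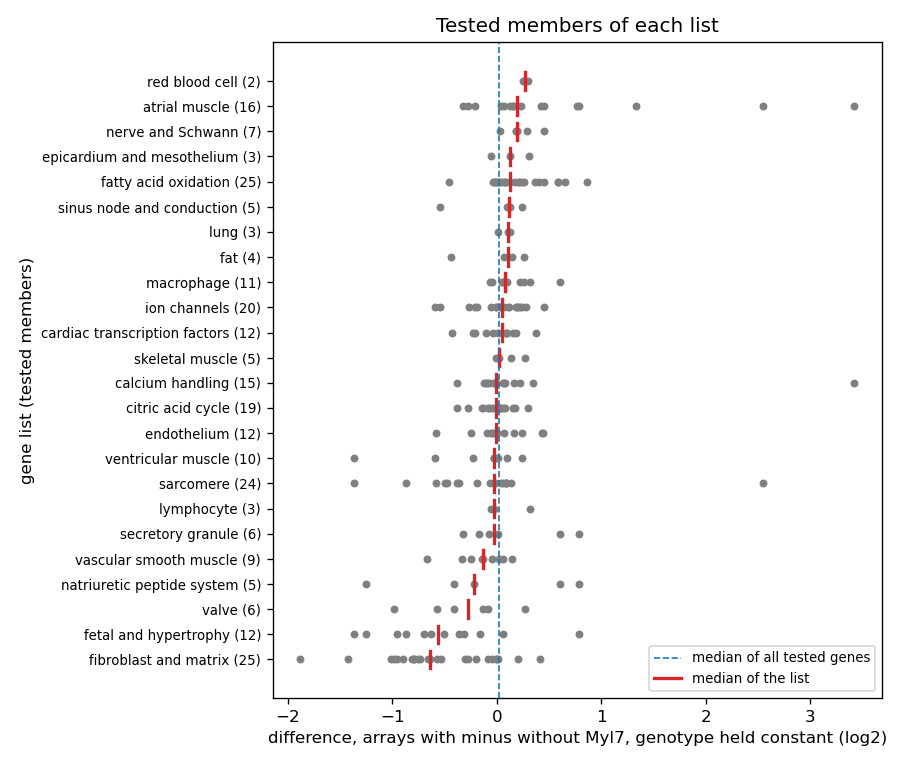
Log2 difference between arrays with and without Myl7, genotype held constant, for each tested member (grey point) of each gene list, with the list's median in red and the median of all tested genes (0.02) as a dashed line. The atrial list spreads up to 3.42 with a median of 0.19, and the matrix list has the lowest median, -0.64.

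Lower with Myl7 were 12 genes (0.135% of those tested) by the same rule, and they formed patterns that differed by genotype. Within day 3, 9 of the 12 differed by less than 1. With hybridization day as a fixed block the side difference is M10 minus M4 alone and repeats the value within day 3. By it 3 of the 12 were still counted, as were 5 of the 8 higher genes. For 6 of the 12, the day 4 arrays (wild-type M23 and M158) read above all 5 other arrays. Ube2w, a ubiquitin-conjugating enzyme, read 10474 and 8456 on these arrays and 471 to 710 on the 5 others, whatever their Myl7. Its difference was -2.40 over all arrays but -0.15 in the knockout and -0.04 within day 3. Rnf20, a ubiquitin ligase of histone H2B, read 7553 and 5353 against 698 to 1067 (1449664_s_at), and 2 other probe sets of the gene differed by -0.07 and -0.01. Cntd1 and Hnrnpf, a splicing factor, read 7300 to 9006 and 4215 to 5341 on the day 4 arrays against 1442 to 5976 and 1238 to 2737. Fscn1, an actin bundler, and Actg1, the cytoplasmic gamma actin, complete the 6, with differences of -1.31 and -1.03. Other Fscn1 and Cntd1 probe sets did not share these differences, at -0.06 to 0.21, and other Hnrnpf probe sets lay between -0.65 and -0.03. The day 4 arrays also had the lowest Gapdh ratio, and the part of day and of RNA length in these differences was not tested.

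Nppb, the brain natriuretic peptide, was counted as lower because of the wild type alone. It read 8385 and 8423 on M125 and M128 and 33621 and 35703 on M23 and M158. On the knockout arrays it read 43351 with Myl7 and 44869 and 45540, at the upper limit, without it. Within day 3 it differed by -0.05, at the edge of the scale. The 12 tested genes of the fetal and hypertrophy list had a median of -0.57, and 4 members were at the upper limit. Apart in the lower direction were 4 members, where 8.37% of all tested genes were. Nppb was the 1 counted as differing, where 0.135% of all tested genes were counted as lower. Within each genotype the upper limit was lower on the arrays with Myl7. A gene at the highest value of every array is therefore apart in this direction, and the 8.37% includes such genes. Without M10 the median of the list was -0.18, the wild-type value, and with only M10 and M125 on the side with Myl7 it was -0.28. Phlda1, an early response gene, read 718 and 1025 on the wild-type arrays with Myl7 and 2607 and 3165 on those without, and 2575 against 2885 and 4527 in the knockout.

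Matrix genes made the opposite pattern, with a large difference in the knockout and a small one in the wild type. Col3a1, a fibrillar collagen, read 1691 on M10 against 17213 and 19869 on M4 and M140. In the wild type it read 4197 and 4255 with Myl7 and 7589 and 7594 without it. The difference was -1.88 ± 0.49 (SE), made of -3.44 in the knockout, -0.84 in the wild type and -3.34 within day 3. Gask1b, a Golgi-associated kinase family member, read 1377 on M10 against 5510 and 7275, and 1868 and 2582 against 2828 and 2828 in the wild type.

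Of the 26 genes of the fibroblast and matrix list 25 were tested, and 21 were lower with Myl7, with 9 apart in both genotypes and Col3a1 the 1 counted as differing. Over all 8868 tested genes, 4011 were lower, 8.37% were apart in this direction and 0.135% were counted. The median was -0.64 over all arrays, -1.17 in the knockout, -1.09 within day 3 and -0.07 in the wild type. Postn, a matricellular protein of activated fibroblasts, read 1685 on M10 and 21455 and 37003 on M4 and M140. On the wild-type arrays it read 3011 and 5504 with Myl7 and 2619 and 4060 without it, so that it was not apart there. Ccn2, the connective tissue growth factor, read 15790 on M10, 37804 on M4 and 39938 on M140, and 6364 and 5514 against 9837 and 9912 in the wild type. Sparc, Col4a1 and Col5a1 differed by -1.02, -0.90 and -0.66. Dcn, a small proteoglycan of resting fibroblasts, went the other way at 0.41. Summed over the 25 genes, intensity was 109381 on M10, 245445 on M4 and 285302 on M140, and 104575 to 123939 on the 4 wild-type arrays. The valve list had 6 tested genes and a like split, with a median of -0.95 in the knockout and 0.19 in the wild type. M10 stood among the wild-type arrays for the matrix sum. Without M10, which leaves both sides in the wild type alone, the matrix median was -0.07.

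Aplnr, the apelin receptor of vessels, and Tfrc, the transferrin receptor, were the 2 of the 12 lower genes that differed by at least 1 in both genotypes. Aplnr read 608 on M10 against 3351 and 2250 on M4 and M140, and 1278 and 1969 on M125 and M128 against 3225 and 5160 on M23 and M158. Its difference was -1.67 ± 0.28 (SE), with -2.43 within day 3. Another Aplnr probe set (1423037_at) was dim and differed by -0.22, and the mean of both by -0.95. Tfrc read 1540 on M10 against 2603 and 5875, and 1223 and 2881 against 6003 and 4921 in the wild type, a difference of -1.45 ± 0.37 (SE). Within day 3 Tfrc differed by -0.75, under the size limit, and its other tested probe set (1422966_a_at), which was dim, by 0.16.

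**Figure D4:**
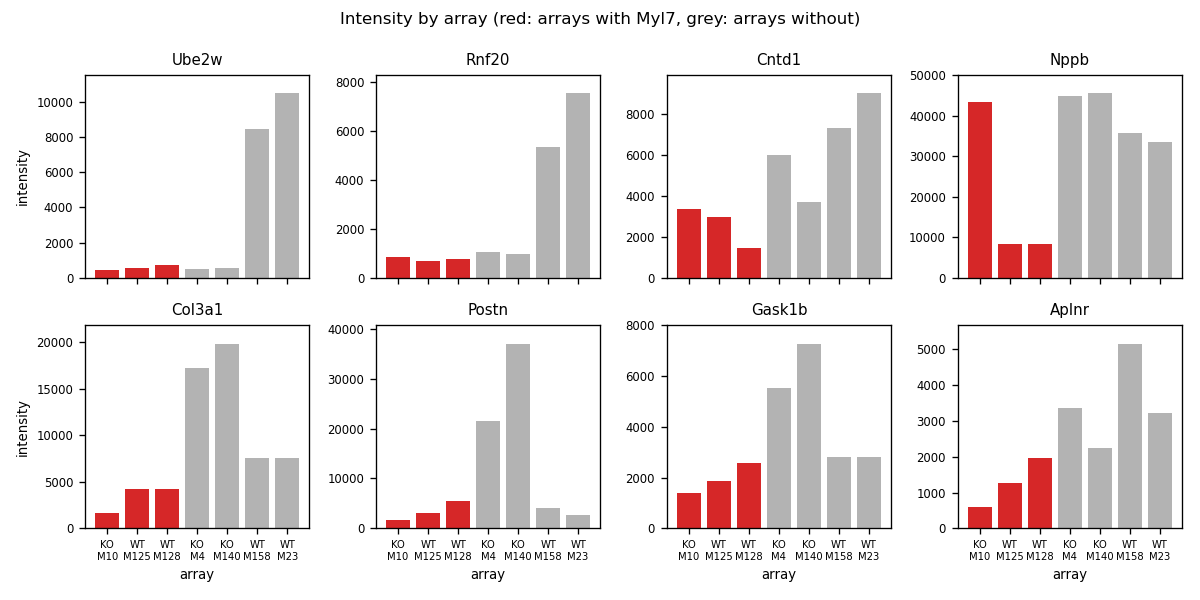
Deposited intensity (linear axis from 0) of 8 genes on each array, 1 mouse per bar, in the order of Myl7; red bars are the 3 arrays with Myl7. Ube2w, Rnf20 and Cntd1 are highest on wild-type M23 and M158, Col3a1, Postn and Gask1b are highest on knockout M4 and M140, and Postn is shown for the matrix list although it was not counted as differing.

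The labelled comparison, knockout against wild type, was then fitted with the Myl7 side as a covariate and set beside the fit without it. Days 2 and 4 held only wild-type arrays and day 3 only knockout arrays. Day 1 alone held both genotypes, M140 and M128, on opposite sides. The lowest Gapdh ratios, 0.0978 on M23 and 0.340 on M158, were both in the wild type. Genotype differences therefore cannot be told apart from hybridization day and this ratio. With the side, 0 of 13836 probe sets passed an adjusted p of 0.05 by limma (0% called), 34 had an adjusted p under 0.10, and 1786 (12.9%) passed 0.05 before adjustment, of which 990 were higher and 796 lower in the knockout. Without the side, 0 passed, 21 had an adjusted p under 0.10, and 1636 (11.8%) passed 0.05 before adjustment. With array weights 4021 and 619 probe sets passed, but the weights with the side did not converge. An adjustment over the brightest probe set of each gene was not planned. By it 1 gene passed in each fit, Ccn2 with the side (limma adjusted p = 0.0365) and Ppargc1a without it (adjusted p = 0.0341). Without knockout M10, 18 and 74 probe sets passed, without knockout M140 19 and 27, and the fit with the side keeps 4 residual degrees of freedom over all 7 arrays.

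Ccn2 had the smallest p with the side in the fit, a knockout difference of 1.75 ± 0.14 (SE, limma adjusted p = 0.0570), against 1.91 ± 0.36 (adjusted p = 0.155) without it. Both knockout arrays without Myl7 were above M10, and M10 was above all 4 wild-type arrays. Ppp1r3c, a regulator of glycogen synthesis, differed by 0.71 ± 0.09 with the side and 0.86 ± 0.32 without it (limma adjusted p = 0.0858 and 0.373). It read 28423 and 26017 on M4 and M140 and 13957 on M10, and 16913 and 15170 on M158 and M23 against 9370 and 8619 on M125 and M128. Within either side, all knockout arrays were above the wild-type arrays, whereas the groups overlapped over all 7 arrays. Ehd4, Ankrd1 and Wdfy1 completed the 5 genes of smallest p in the higher direction, at 0.84, 1.20 and 0.64 (limma adjusted p = 0.0858 each), and Ankrd1, a stress-induced protein of the sarcomere, was at the upper limit on 2 knockout arrays.

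The genes lower in the knockout by smallest p had close values in both fits. Ppargc1a, a coactivator of mitochondrial genes, differed by -2.03 in either fit (1456395_at, limma adjusted p = 0.0858 with the side and 0.0531 without). The other tested Ppargc1a probe sets parted the genotypes less. Of these, 1437751_at read 1120 to 1921 on the knockout and 1745 to 2286 on the wild-type arrays, with overlap. The dim 1460336_at read 320.5 to 472.6 against 476.2 to 898.4. Pla2g5, Dut, G0s2 and Cenpv differed by -1.09, -1.05, -1.21 and -0.91 with the side (adjusted p = 0.0858 each). Of the genes of heart load, Acta1, Myh7, Nppa and Nppb differed by 2.58 ± 0.57, 2.20 ± 0.64, 1.93 ± 0.44 and 1.18 ± 0.37 (SE) with the side, with limma adjusted p of 0.185, 0.257, 0.189 and 0.291. Nppa, Nppb, Myh7 and Ankrd1 were each at the upper limit on 2 knockout arrays, so that their differences are lower bounds and their SE and p refer to the truncated values. Acta1, below the limit on all arrays, differed by 2.73 ± 0.61 without the side (limma adjusted p = 0.209). Col3a1 differed by 0.24 ± 0.49 with the side and 0.56 ± 0.80 without it (adjusted p = 0.882 and 0.851). Col1a1 differed by 0.33 and 0.43 at its brightest probe set (1455494_at). A dimmer tested Col1a1 probe set (1423669_at) set knockout M4 and M140 further apart, at 2872 and 3115. Wild-type values there ran from 520 to 847, and knockout M10, at 599, fell within that range. Nos3 read 1145, 1414 and 1135 on M4, M10 and M140 and 791 to 1163 on the wild-type arrays, a difference of 0.38 ± 0.14 with the side (limma adjusted p = 0.337). Where this probe set lies relative to the deletion is unknown here, so it is no check of the labels. The fatty acid oxidation list had a genotype median of -0.27 with and without the side, against 0.00 over all tested genes, and the fetal and hypertrophy list, with 4 members at the upper limit, 1.14 with the side and 1.25 without it.

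**Figure D5:**
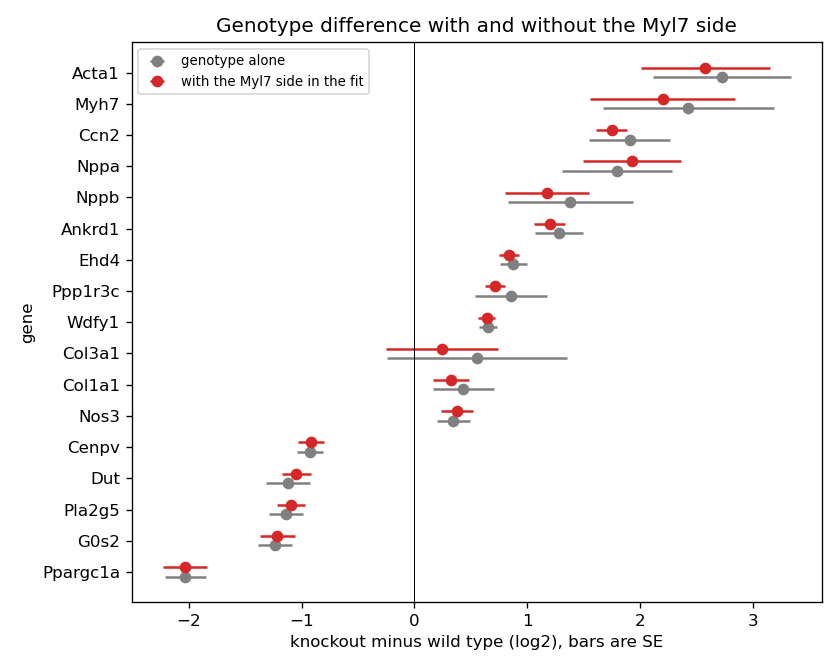
Knockout minus wild type on the log2 scale, with SE, from the fit of genotype alone (grey) and with the Myl7 side as covariate (red), for the genes of smallest p and the heart genes listed in the text (Pln, at the upper limit, is left out); values of Nppa, Nppb, Myh7 and Ankrd1 are lower bounds. Ccn2 keeps a close value, 1.91 and 1.75, with an SE of 0.36 and 0.14, and Ppargc1a is -2.03 in both.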

How the data were processed

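Left ventricle RNA of 7 male mice was measured on MOE430A arrays. The table of intensities deposited by the authors holds 22690 probe sets on a linear scale, already at nearly the same level on each array and with an upper limit; the sources used here do not name the software, background correction or scaling. Probe sets within 1% of an array's highest value were counted as at the limit. The deposited experiment sheets gave the hybridization day and chip lot.

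After removal of 64 control probe sets, 20380 named 1 gene, 691 several (not named) and 1555 none; 20351 matched the GRCm38.p6 gene table, which changed 0 symbols. Values were taken as log2(intensity + 16), which understates differences at low signal. Tests covered each probe set above the 40th percentile of its array on at least 3 arrays (13836 probe sets). Each gene took the value of its brightest tested probe set (8869 genes, 8868 without Myl7). Array pairs correlated at 0.946 to 0.986, so that no array was a copy of another. Single probe sets could hold the same value on several arrays.

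The side coefficient and its SE came from limma 3.58.1 in R 4.3.3 with genotype in the fit, and are given without a p-value. Genotype was tested in the same fit (lmFit, eBayes with trend, two-sided, Benjamini-Hochberg over all tested probe sets, threshold 0.05), and limma's p-values measure the spread between these arrays. Named genes were Myl4, Sln and the other tested members of the atrial and ventricular lists, the 15 genes of largest side difference in each direction among those counted as differing, list members so counted, the 5 genes of smallest genotype p in each direction with the side in the fit, and Nos3, Nppa, Nppb, Myh7, Acta1, Ankrd1, Ccn2, Col1a1, Col3a1, Ppargc1a and Pln. Other genes named were chosen after their values were seen. The rule, the lists and the members were chosen with earlier results of these data known. The fit was tested on simulated data. Figures were drawn with matplotlib 3.10.9 in Python 3.11.15.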

Additional observations from a re-analysis of the deposited data

Results flagged for a closer look

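Among the 56 named genes, 2 had opposite sides in the 2 genotypes, which was not tested. Nppa was -0.26 on the log2 scale on the knockout array with Myl7 against those without, and 1.47 in the wild type; both knockout arrays without Myl7 were at the upper limit. Kcna5, a potassium channel of the atrial list, was 0.39 in the knockout and -0.61 in the wild type.

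For 4 named genes, 1 wild-type array lay apart from the 3 others (its gap to the nearest array as a share of the group's range), where chance alone flags about 5% of such groups. These were Bmp10 (0.849) and Rgs6 (0.903), highest on M125, Cacna2d2 (0.936), highest on M23, and Kcnip2 (0.895), highest on M158. The gaps were small in intensity: Cacna2d2 read 708 on M23 against 651 to 654 and Kcnip2 546 on M158 against 523 to 525, Rgs6 766 on M125 against 639 to 651, and Bmp10 read 855 on M125 against 659 to 686 on the other wild-type arrays.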

How the results depend on the processing

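Sln and Myl4 kept their direction and a difference of at least 2.14 on the log2 scale under every alternative computed, and no side difference recomputed under them changed sign. Counts of genes were less firm. Without the day 4 arrays only the knockout holds both sides, and without M10 only the wild type does. The rule then covers 1 genotype. With day as a fixed block the side difference is M10 minus M4 alone. The genes counted as higher and lower (8 and 12) numbered 34 and 105 with a size limit of 0.58, 17 and 81 without both wild-type arrays of day 4 (added after the data were seen; 5 and 4 of the original genes among them), 7 and 16 with day as a fixed block (5 and 3 of the original genes), 5 higher with only M10 and M125 on the side with Myl7 (4 shared), and 7 lower with the average over a gene's probe sets (6 shared). Leaving out 1 array gave 6 to 32 higher and 12 to 58 lower genes, both highest without knockout M10, with 7 and 10 of the original genes among them. The lower count was 21 without knockout M140 and 27 without wild-type M125.

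The atrial median of 0.19 was 0.60 with the 60th percentile filter, which drops dim members. The matrix median of -0.64 was -1.09 with day as a fixed block and -1.17 without the day 4 arrays. These 2 settings repeat the values within day 3 and within the knockout. The fetal and hypertrophy median of -0.57 was -0.28 with only M10 and M125 on the side with Myl7 and -0.35 with that average, and the nerve median of 0.19 was 0.045 with only M10 and M125. Leaving out 1 array gave 0.10 to 0.26 for the atrial, -0.76 to -0.071 for the matrix and -0.67 to -0.18 for the fetal list. It gave 0.11 to 0.27 for the nerve and -0.04 to -0.02 for the ventricular list. The values of -0.071 and -0.18 were those without M10 and repeat the wild-type medians.

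Probe sets passing for genotype (0 in both fits) numbered 4021 with the side and 619 without it under array weights. They numbered 1 and 1 with the 60th percentile filter or with the unplanned adjustment over genes. Without the side, 1 passed without the day 4 arrays. With day as a fixed block, the genotype difference without the side is knockout M140 minus wild-type M128 alone. These arrays also lie on opposite sides, so that no count is given for this setting. Leaving out 1 array gave 0 to 19 with the side and 0 to 74 without it. The causes were not tested. No paired analysis was possible because the groups share no mouse number. The upper limit and the background left in the values limit what bright and dim probe sets can show.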

Other observations

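Among 7 genes that differed by at least 1 between the sides but whose sides overlapped within a genotype, Mt2, a metallothionein that binds zinc, read 19158 and 22795 on wild-type M125 and M128 against 5119 and 5486 on M158 and M23, and 13532, 13705 and 13955 on the 3 knockout arrays. AY036118 read 4539 and 3880 on M158 and M23 and 1226 to 1351 on the 5 other arrays. Xpo7, a nuclear export receptor, read 3345 and 4097 on M158 and M23 and 1050 to 2667 on the others.

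Of the fatty acid oxidation genes, Ucp3, a mitochondrial carrier, read 1419 and 1168 on wild-type M125 and M128 against 662 and 679 on M23 and M158, and 686 on knockout M10 against 594 and 569 on M4 and M140. Hadha, of the trifunctional protein, read 18312 and 14993 against 8433 and 11982 in the wild type, and 11927 against 11003 and 7626 in the knockout. Both were apart in the higher direction within each genotype, with differences of 0.65 and 0.58. With Acot1 (0.59) they made 3 of 25 tested genes of the list, close to the 11.9% of all tested genes, and 2 members were apart in the lower direction.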
